A study of Mus musculus with 6 samples.

Results

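The 44 genes described here encode the core machinery of macroautophagy, its cargo receptors, mitophagy factors, TFEB and TFE3, and lysosomal membrane proteins. Genes were taken by symbol from a table of 55421 annotated mouse genes. All 44 were found, and all 44 had the mean of at least 10 normalized counts over the 6 libraries that was asked of a gene before testing, as did 17640 genes in all. RNA-seq was done on splenic B cells from mice, purified, activated in culture with 5 µg/ml LPS and 5 ng/ml IL-4 for 24 h, and sorted as GFP+ cells. The WT group (3 libraries, genotype label CD21-cre) came from mice with CD21-cre and the Rosa mT/mG reporter. The hnRNPL-deficient group (3 libraries, genotype label hnRNPL F/F CD21-cre) came from mice that also had floxed Hnrnpl on both alleles. Both groups therefore carried Cre and the reporter, and differed in the floxed Hnrnpl alleles. CD21-cre acts in mature B cells, GFP marks cells in which Cre was active, and the mice were males and females older than 6 weeks. The labels name replicates without saying more, so p-values measure the spread between these 3 and 3 libraries.

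In macroautophagy, the ULK1 kinase complex and a class III phosphatidylinositol 3-kinase start a cup-shaped membrane, the phagophore, which ATG9 and ATG2 supply with lipid. Ubiquitin-like conjugation reactions then attach the ATG8 proteins (LC3 and GABARAP families) to that membrane, cargo receptors tether material to ATG8, and the closed vesicle fuses with a lysosome. Mitophagy is the disposal of mitochondria by this route, PINK1 being the kinase that marks damaged ones. In B cells, autophagy is best known for supporting memory B cells and plasma cells.

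Reads assigned to genes numbered 40395186 to 75180749 per library, with 24009 to 26283 genes above 0. *Hnrnpl* itself had 24371, 25579.7 and 24174 normalized counts in WT libraries 1, 2 and 3 and 2178, 1519 and 1297 in hnRNPL-deficient libraries 1, 2 and 3 (log2 fold change -3.93, SE 0.173, adjusted p = 2.23e-05, limma). The 7 B cell markers were detected in every library, with summed levels of 287230 to 363806 in WT and 279481 to 326061 in hnRNPL-deficient libraries. Of 10 markers of macrophages, monocytes and neutrophils 3 were tested and only *Adgre1* was called, at 236 to 315 in WT and 1217 to 1369 in hnRNPL-deficient libraries. The summed level of these 10 genes went from 597 to 749 in WT to 1661 to 1811 in hnRNPL-deficient libraries, while *S100a8* and *S100a9* were at 0 throughout and *Lyz2*, *Cd14*, *Mpo* and *Csf1r* were at 6.85 or less. Of 2 erythroid markers tested, *Hbb-bt* was called higher (6.88 to 15.1 in WT, 36.1 to 56.5 in hnRNPL-deficient libraries). The cytotoxic gene *Prf1* (26.0 to 33.7 and 43.4 to 65.8), the 1 NK cell marker tested, was also called higher, while *Ncr1*, *Klrb1c* and *Klrk1* were at 3.03 or less. Of 3 plasma cell markers tested, *Jchain* (26.0 to 117 and 7.07 to 23.4) was called lower. *Sdc1* (112 to 128 and 75.4 to 133) and *Prdm1* (1400 to 1618 and 1233 to 1770) were not called. Of 7 T cell markers 2 were tested and none was called. *Xist* was at 98507 in WT library 3 and 98219 in hnRNPL-deficient library 2, and at 7.21 or less in the other 4. The Y-linked genes *Ddx3y*, *Kdm5d*, *Uty* and *Eif2s3y* were at 3.06 or less in those 2 libraries and at 1921 or more in the other 4. By these genes, those 2 libraries were female and the other 4 male. The part of these differences in the values of autophagy genes was not tested.

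Promoters are shown for 5 genes, since MiT/TFE transcription factors (TFEB, TFE3, MITF) bind E-boxes in lysosomal and autophagy promoters and forkhead factors bind at autophagy genes. RefSeq windows of 300 bases, 250 before and 50 after the start, matched 38 of the 44 genes on GRCm38.p6 and were searched on both strands. The letters CACGTG, an E-box, were in 5 of the 38 (13.2%) and in 8.09% of 27025 genes with such a window. The longer TCACGTGA, which contains the E-box, was in 1 of the 38 (2.63%) and in 1.12% of all, and the forkhead letters TGTTTAC were in 0 of the 38 and in 4.05% of all. *Lamp1* and *Atg3* are printed as windows with more than one E-box, and *Atg14* as one with a single E-box and a difference in RNA level. *Pink1* and *Atg13* are printed as genes called higher between the groups, of which the 7 with a window held none of the 3 motifs. Capitals mark the motifs, which are letters only and not sites known to be bound.
Lamp1, chr8:13158911-13159210, plus strand: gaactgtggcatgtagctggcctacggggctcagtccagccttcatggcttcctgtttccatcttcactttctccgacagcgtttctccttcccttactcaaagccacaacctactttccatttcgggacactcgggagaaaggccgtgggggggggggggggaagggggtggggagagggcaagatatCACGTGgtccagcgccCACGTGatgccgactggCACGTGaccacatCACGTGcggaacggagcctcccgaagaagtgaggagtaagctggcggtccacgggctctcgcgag
Atg3, chr16:45158579-45158878, plus strand: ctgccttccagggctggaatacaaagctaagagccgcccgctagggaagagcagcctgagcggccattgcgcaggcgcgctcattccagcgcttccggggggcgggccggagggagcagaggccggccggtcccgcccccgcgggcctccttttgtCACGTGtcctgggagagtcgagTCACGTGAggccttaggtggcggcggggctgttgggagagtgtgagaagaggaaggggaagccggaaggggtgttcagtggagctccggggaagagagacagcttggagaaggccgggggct
Atg14, chr14:47568385-47568684, minus strand: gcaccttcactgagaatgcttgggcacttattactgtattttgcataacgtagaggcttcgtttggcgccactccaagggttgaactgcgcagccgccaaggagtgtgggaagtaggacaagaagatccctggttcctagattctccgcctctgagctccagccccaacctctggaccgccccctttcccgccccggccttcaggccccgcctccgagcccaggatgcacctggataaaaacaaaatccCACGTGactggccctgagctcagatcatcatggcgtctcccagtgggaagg
Pink1, chr4:138326247-138326546, minus strand: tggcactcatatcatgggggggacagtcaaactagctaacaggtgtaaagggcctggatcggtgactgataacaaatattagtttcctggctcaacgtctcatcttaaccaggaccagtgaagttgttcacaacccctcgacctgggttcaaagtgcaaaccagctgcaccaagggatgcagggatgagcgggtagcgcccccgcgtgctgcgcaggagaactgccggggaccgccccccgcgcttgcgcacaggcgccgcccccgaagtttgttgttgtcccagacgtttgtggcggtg
Atg13, chr2:91710543-91710842, minus strand: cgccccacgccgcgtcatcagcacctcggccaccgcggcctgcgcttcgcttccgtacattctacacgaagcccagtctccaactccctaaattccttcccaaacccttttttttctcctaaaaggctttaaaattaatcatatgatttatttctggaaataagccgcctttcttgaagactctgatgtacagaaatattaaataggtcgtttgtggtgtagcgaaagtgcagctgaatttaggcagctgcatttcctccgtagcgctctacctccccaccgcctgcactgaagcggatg
In *Lamp1* the 4 E-boxes begin 61, 45, 28 and 15 bases before the start. In *Atg3* they begin 94 and 71 bases before it, the second lying inside the TCACGTGA that begins at 72. In *Atg14* the E-box begins 1 base before a RefSeq start that lies inside the longer gene of the GENCODE annotation. *Atg5* and *Atg7* hold 1 E-box each, 14 and 132 bases before the start. The *Atg7* window, at chr6:114670846-114671145 on the plus strand, also lies inside the GENCODE gene, which begins at 114643097. Among the genes called higher, the *Wdr45* window (chrX:7722677-7722976, plus strand) lies inside its GENCODE gene too, which begins at 7714333. The absence of motifs there does not cover the GENCODE start of *Wdr45*.

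Called below means an adjusted p under 0.1 and at least 1.5-fold, and passed means an adjusted p under 0.1 at any fold, both by limma over all 17640 genes. Of the 44 genes 8 were called higher in hnRNPL-deficient cells (18.2%, against 7.28% of all genes tested) and 0 were called lower (against 4.08%). At any fold 14 passed as higher (31.8%, against 10.0%) and 1 as lower (2.27%, against 7.97%), so 29 did not pass. At an unadjusted p under 0.05, 18 of the 44 differed in either direction (40.9%, against 27.4%). All 3 hnRNPL-deficient libraries lay above all 3 WT libraries for 18 genes (40.9%, against 17.7% of all genes) and below them for 3 (6.82%, against 16.3%). The median log2 fold change was 0.20 over the 44 genes and -0.03 over all genes tested. A positive one was found for 36 of the 44, against 8336 of all 17640 genes. These shares describe the list and were not tested, since the genes were chosen with earlier results of these data known. The log2 fold changes of all 44 genes by role are plotted with their 95% intervals.

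**Figure D1:**
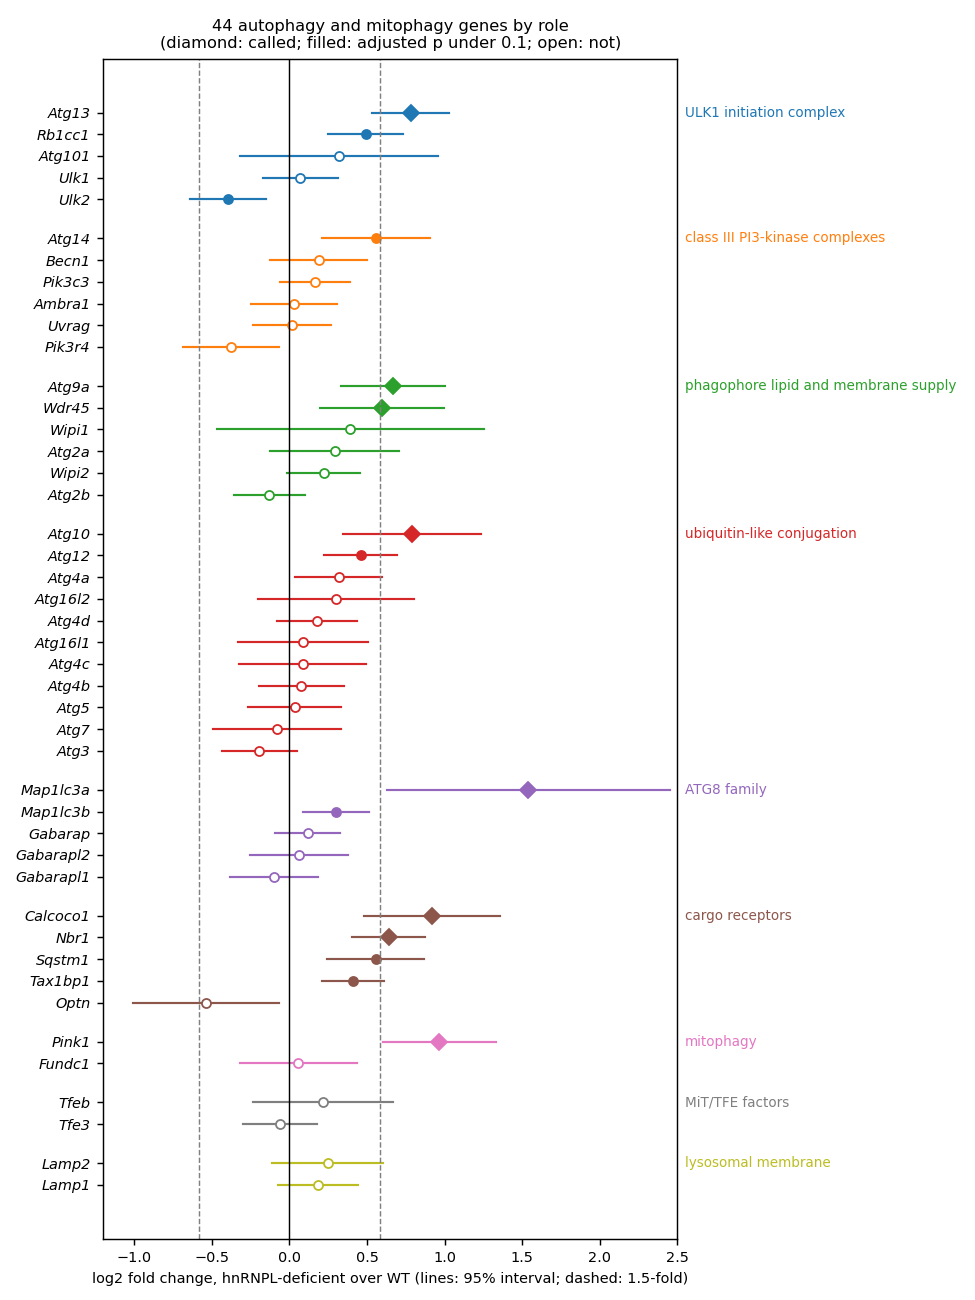
The log2 fold change (hnRNPL-deficient over WT, horizontal axis) of each of the 44 genes, grouped by role, with 95% intervals from limma (n = 3 per group). The 8 called genes, drawn as diamonds, all lie to the right of 0, from 0.60 for Wdr45 to 1.54 for Map1lc3a, and 29 open symbols did not pass.

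Among the 5 genes of the ULK1 initiation complex, 2 passed as higher (40%, against 10.0% of all genes) and 1 as lower (20%, against 7.97%). This is the one role with both directions. *Atg13*, the adaptor that holds ULK1 and FIP200 together, lies at chr2:91674618-91710576 on the minus strand. It had 655, 646 and 645 normalized counts in WT libraries 1, 2 and 3 and 1119, 1122 and 1105 in hnRNPL-deficient libraries 1, 2 and 3. The groups did not overlap and each was tight, with a coefficient of variation of 0.791% in WT and 0.814% in hnRNPL-deficient libraries, the lowest of the 44 genes in both. *Atg13* rose by a log2 fold change of 0.78 (SE 0.108, adjusted p = 0.00374, limma), the smallest adjusted p of the list. *Rb1cc1*, which encodes the scaffold FIP200, had 2027 to 2175 counts in WT and 2767 to 3320 in hnRNPL-deficient libraries and passed under 1.5-fold (log2 fold change 0.49, adjusted p = 0.0227). *Ulk2*, one of the pair of kinases, was the one gene of the 44 to pass as lower. Its values were 1599, 1416 and 1455 in WT and 1161, 1077 and 1157 in hnRNPL-deficient libraries. The groups did not overlap, and the log2 fold change was -0.40 (SE 0.107, adjusted p = 0.0491). *Ulk1*, the other kinase, had 1636 to 1795 and 1706 to 1967 counts (0.07, 95% interval -0.17 to 0.31), and *Atg101*, the partner of ATG13, 129 to 211 and 143 to 256 (0.32, -0.32 to 0.96).

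Of the 6 genes of the class III phosphatidylinositol 3-kinase complexes none was called and 1 passed as higher (16.7%, against 10.0% of all genes). *Atg14*, the subunit that directs the kinase to autophagosome formation, had 303, 249 and 266 counts in WT and 380.5, 419 and 404 in hnRNPL-deficient libraries. All 3 hnRNPL-deficient values were above all WT values (log2 fold change 0.56, SE 0.153, adjusted p = 0.0501, 1.47-fold). The adjusted p was 0.101 to 0.169 without WT library 2 or 3 or without hnRNPL-deficient library 1 or 2. *Uvrag*, which takes the place of ATG14 in the endosomal form of the complex, stood at 3981 to 4736 in WT and 4071 to 4838 in hnRNPL-deficient libraries (0.01, 95% interval -0.24 to 0.27). *Pik3r4*, the regulatory subunit VPS15, was 3253 to 3771 in WT and 2262 to 3166 in hnRNPL-deficient libraries, a log2 fold change of -0.38 that did not pass (adjusted p = 0.114) although the groups did not overlap. The kinase gene *Pik3c3* (0.17), *Becn1* (0.19) and *Ambra1* (0.03), which encodes a regulator of beclin 1, did not pass.

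Of the 6 genes that supply the phagophore, *Atg9a* and *Wdr45* were called higher (33.3%, against 7.28% of all genes) and the other 4 did not pass. *Atg9a* encodes a membrane-spanning lipid scramblase of the core machinery and lies at chr1:75180860-75192196 on the minus strand. It had 309, 383 and 338 counts in WT and 506, 569 and 559 in hnRNPL-deficient libraries. The lowest hnRNPL-deficient value exceeded the highest WT value (log2 fold change 0.67, SE 0.147, adjusted p = 0.0240). *Wdr45*, which encodes the phosphoinositide-binding protein WIPI4, lies on the X chromosome (chrX:7714333-7728206, plus strand). It had 149, 169 and 167 counts in WT and 262, 252 and 221 in hnRNPL-deficient libraries. The groups did not overlap, and both libraries with high *Xist* lay within the range of the other 2 of their group. At 1.51-fold (log2 fold change 0.60, SE 0.175, adjusted p = 0.0620) *Wdr45* was the call nearest to both thresholds, and its adjusted p was 0.0683 without hnRNPL-deficient library 3 but 0.128 to 0.161 without any one of the other 5. Both genes share exonic bases on the same strand with another annotated gene, *Atg9a* with *Gm29253* over 31.8% of its exon length and *Wdr45* with *Gm45208* over 24.7%. Those neighbours had at most 1 and 0 reads in a library. How reads in shared bases were assigned is not given in the sources used here. *Atg2b*, one of the lipid transfer proteins, was 5085 to 5789 in WT and 4536 to 5170 in hnRNPL-deficient libraries (-0.13, 95% interval -0.36 to 0.10), and its paralog *Atg2a* had a log2 fold change of 0.29 (-0.12 to 0.71). *Wipi1* was near the floor of detection, at 11.6 to 16.4 and 13.1 to 23.3 counts, whereas its paralog *Wipi2* had 2240 to 2444 and 2556 to 2975 (0.22, adjusted p = 0.208).

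The 11 genes of the ubiquitin-like conjugation reactions had a median log2 fold change of 0.09. Of them 1 was called higher (9.09%, against 7.28% of all genes) and 1 more passed as higher (18.2% passing in all, against 10.0%). These were an enzyme of the ATG12 branch and its substrate. *Atg10*, the E2-like enzyme that transfers ATG12 to ATG5, lies at chr13:90935356-91223968 on the minus strand. It had 328, 245 and 213 counts in WT and 479, 397 and 466 in hnRNPL-deficient libraries, without overlap (log2 fold change 0.79, SE 0.196, adjusted p = 0.0363). The adjusted p went to 0.104 to 0.131 when WT library 2, WT library 3 or the first hnRNPL-deficient library was left out, with log2 fold changes of 0.65 to 0.75. *Atg12* itself had 1379.85, 1450.0 and 1448 counts in WT and 2013, 1813 and 2068 in hnRNPL-deficient libraries. It passed under 1.5-fold (log2 fold change 0.46, SE 0.103, adjusted p = 0.0251), again without overlap. *Atg3*, the E2-like enzyme for ATG8, had 3015 to 3644 counts in WT and 2745 to 2944 in hnRNPL-deficient libraries, all 3 below the WT values (log2 fold change -0.19), but did not pass (adjusted p = 0.277). For *Atg5*, the acceptor of ATG12, and *Atg7*, the E1-like enzyme of both branches, the 95% intervals of the log2 fold change were -0.26 to 0.33 and -0.49 to 0.33. The 4 ATG8 proteases *Atg4a*, *Atg4b*, *Atg4c* and *Atg4d* had log2 fold changes of 0.32, 0.07, 0.09 and 0.18. *Atg16l1*, whose product carries the conjugate to the membrane, and its paralog *Atg16l2* had 0.09 and 0.30. None of these 6 passed. *Atg16l2*, the lowest of the role per length of exon, had normalized counts of 335 to 536 in WT and 449.9 to 651 in hnRNPL-deficient libraries.

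Among the 5 ATG8 genes both LC3 genes passed as higher (40%, against 10.0% of all genes) and none of the 3 GABARAP genes passed. *Map1lc3a* (LC3A; chr2:155276297-155278073, plus strand) had 13.9, 32.0 and 38.2 counts in WT and 95.6, 65.6 and 72.6 in hnRNPL-deficient libraries. The lowest hnRNPL-deficient value was above the highest WT value, but the WT values were scattered, with a coefficient of variation of 45.0%, the highest of the 44 genes in that group. The log2 fold change was 1.54 (SE 0.399, 95% interval 0.63 to 2.45, adjusted p = 0.0420), the largest of the list, at 2.91-fold. Without hnRNPL-deficient library 1 the adjusted p was 0.116. *Map1lc3b* (LC3B) had 2363, 2280.0 and 2332 counts in WT and 2969, 2899 and 2723 in hnRNPL-deficient libraries. The groups did not overlap, and the log2 fold change was 0.30 (SE 0.0920, adjusted p = 0.0720). This pass was lost in many refits. The adjusted p was 0.102 to 0.210 without any one library except hnRNPL-deficient library 3. With a lower filter or none, no mean-variance trend or an *Xist* covariate it was 0.107 to 0.138. It stayed at 0.0222 to 0.0727 with other pseudocounts, the higher filter, other scalings, a replicate block, edgeR or DESeq2. *Gabarap* had 6282 to 6613 and 6445 to 7312 counts (0.12, 95% interval -0.09 to 0.33), *Gabarapl1* 1155 to 1317 and 1056 to 1310 (-0.10, -0.38 to 0.19), and *Gabarapl2* 1152 to 1465 and 1181 to 1439 (0.06, -0.25 to 0.38).

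Levels of different genes were compared only after division by length, as normalized counts per kb of annotated exon, and the exons of all transcripts were counted whether or not these cells use them. On that scale *Gabarap* was the most abundant of the 44 in WT cells, at 3481 ± 93.4 (SD, n = 3), followed by *Lamp1* at 3427 ± 393, which did not differ from it beyond the spread. *Sqstm1* (1966 ± 292), *Lamp2* (1269 ± 241) and *Atg5* (1241 ± 151) came next, the last 2 again within their spread of each other. *Calcoco1* (36.3 ± 6.62), *Map1lc3a* (23.8 ± 10.7) and *Wipi1* (3.27 ± 0.572) were lowest. In hnRNPL-deficient cells *Lamp1* stood at 3888 ± 335 and *Gabarap* at 3779 ± 250, *Map1lc3a* reached 66.0 ± 13.3 and *Calcoco1* 68.3 ± 7.13. Of the summed per-length level of the ATG8 genes, *Gabarap* made up 70.0% ± 1.07 in WT and 70.4% ± 0.901 in hnRNPL-deficient cells. *Map1lc3b* made up 6.22% ± 0.124 and 7.10% ± 0.153, and *Map1lc3a* 0.477% ± 0.211 and 1.23% ± 0.237, both without overlap. *Gabarapl1* made up 12.4% ± 0.835 and 10.7% ± 1.09 and *Gabarapl2* 10.9% ± 1.62 and 10.5% ± 1.21, with overlap. The plot of per-length levels shows where the called genes sit in this order.

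**Figure D2:**
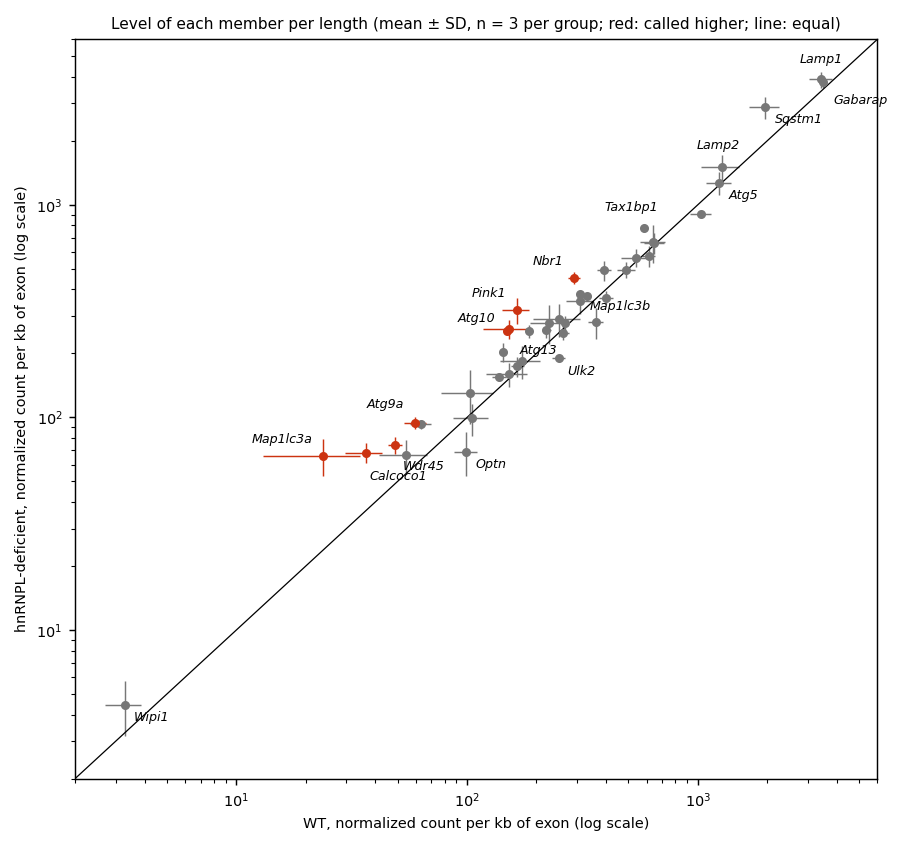
Level of each of the 44 genes in WT (horizontal) and hnRNPL-deficient (vertical) cells, as normalized counts per kb of annotated exon on log axes, mean ± SD with n = 3 per group. The 8 genes called higher (red) lie above the line of equal levels at 23.8 to 291 per kb in WT, while Gabarap, Lamp1 and Sqstm1, at 1966 or more, are at the top.

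Of the 5 cargo receptor genes 4 passed as higher (80%, against 10.0% of all genes), 2 of them called (40%, against 7.28%). *Calcoco1*, a relative of NDP52 known as a receptor for the endoplasmic reticulum and Golgi, lies at chr15:102706777-102722178 on the minus strand. It had 165, 224 and 236 counts in WT and 431, 349 and 395 in hnRNPL-deficient libraries, without overlap (log2 fold change 0.92, SE 0.192, adjusted p = 0.0197). *Nbr1*, a ubiquitin-binding receptor, lies at chr11:101552149-101581951 on the plus strand. Its values were 2018, 2120.0 and 1868 in WT and 3293, 3178 and 2884 in hnRNPL-deficient libraries. The groups were well apart (log2 fold change 0.64, SE 0.103, adjusted p = 0.00718). *Sqstm1*, which encodes p62, the receptor that NBR1 binds, had 5551, 7492 and 6756 counts in WT and 9581, 10865 and 8572 in hnRNPL-deficient libraries. All 3 hnRNPL-deficient values were above the WT values, and at 1.47-fold it passed just under the 1.5-fold limit (log2 fold change 0.56, SE 0.137, adjusted p = 0.0356). *Tax1bp1*, a further ubiquitin-binding receptor, had 5681 to 6109 and 7449 to 8132 counts (log2 fold change 0.41, SE 0.0881, adjusted p = 0.0217). *Optn*, which encodes optineurin, a receptor also used in mitophagy, had 411, 325 and 379 counts in WT and 246, 326 and 206 in hnRNPL-deficient libraries. Library 2 of the hnRNPL-deficient group fell inside the WT range, and *Optn* did not pass (log2 fold change -0.54, SE 0.205, adjusted p = 0.133). Without that library it was called lower, at -0.72 with an adjusted p of 0.0771. The values of the 15 genes that passed are plotted by library.

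**Figure D3:**
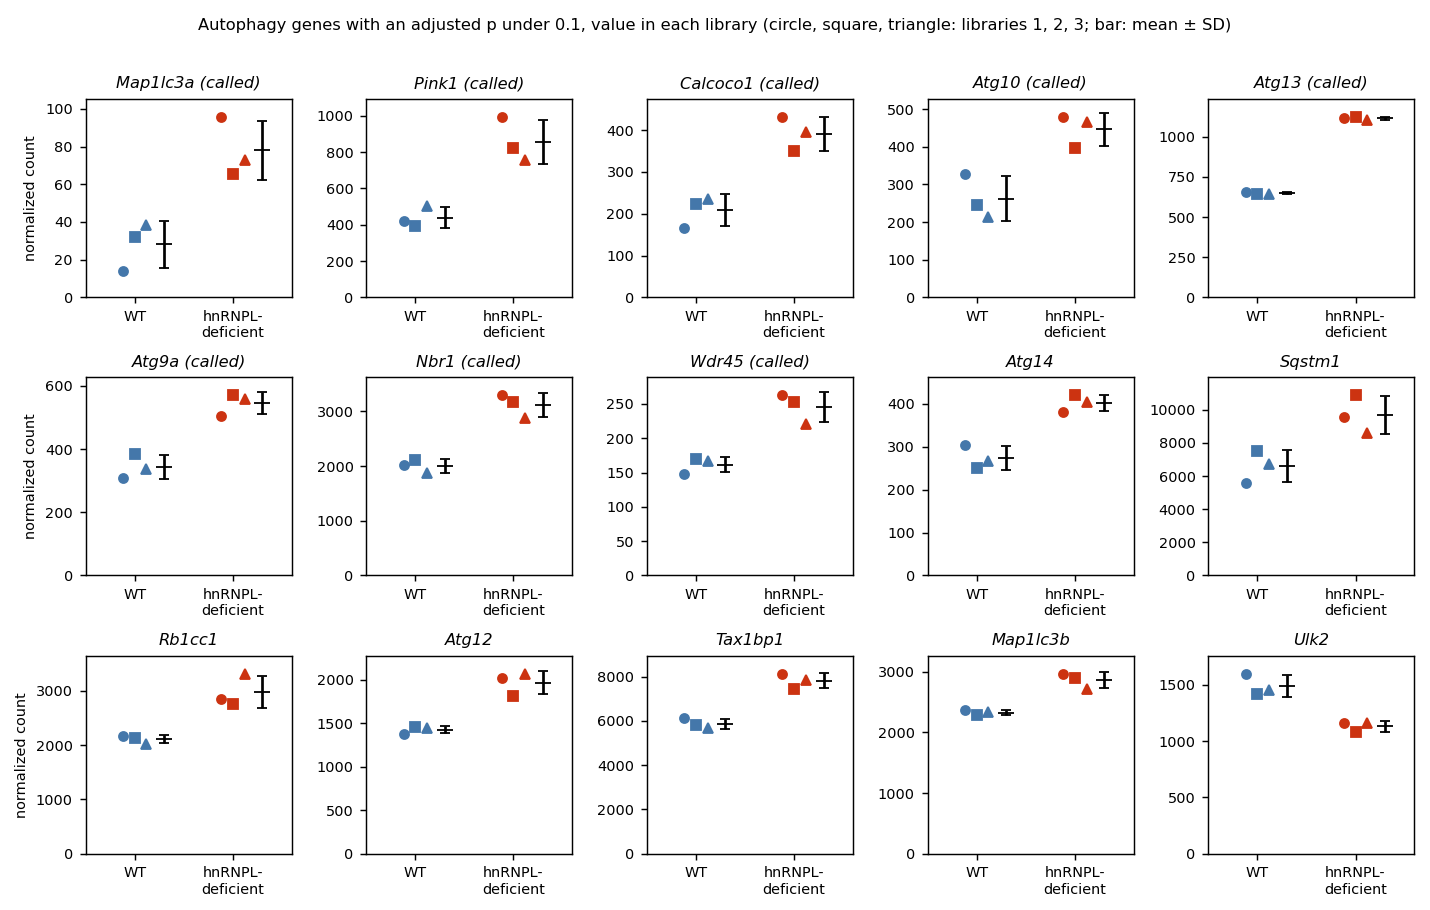
Normalized counts (vertical axes, each from 0) of the 15 genes with an adjusted p under 0.1 in each WT (blue) and hnRNPL-deficient (red) library, with the mean and SD of each group beside the points (n = 3). In each panel the 2 groups do not overlap. Atg13 has the tightest groups, and Ulk2 is the one gene with lower values in hnRNPL-deficient libraries.

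Of the mitophagy genes, *Pink1* was called higher and *Fundc1* was not. *Pink1* (chr4:138313409-138326307, minus strand) had 421, 391 and 503 counts in WT and 993, 822 and 759 in hnRNPL-deficient libraries. The groups lay far apart. The log2 fold change was 0.97 (SE 0.159, 95% interval 0.60 to 1.33, adjusted p = 0.00766), or 1.95-fold. A microRNA gene and a small gene model share 6.70% of the *Pink1* exon length on the same strand. *Fundc1*, an outer-membrane receptor that acts without PINK1, had 1328 to 1698 counts in WT and 1274 to 1909 in hnRNPL-deficient libraries (0.06, 95% interval -0.32 to 0.43).

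The genes of TFEB and TFE3, transcription factors for lysosomal and autophagy genes, did not pass. *Tfeb* had 1047 to 1629.8 counts in WT and 1424 to 1969.8 in hnRNPL-deficient libraries (log2 fold change 0.21, 95% interval -0.24 to 0.67) and *Tfe3* 2280.4 to 2543 and 2122 to 2488 (-0.06, -0.30 to 0.18). The lysosomal membrane genes also did not pass. *Lamp1* was 8417 to 10368 in WT and 9737 to 11419.8 in hnRNPL-deficient libraries (0.18, adjusted p = 0.336), and *Lamp2* 10687 to 14773 and 12052 to 16222 (0.25, adjusted p = 0.353). For *Lamp1*, whose printed window held 4 E-boxes, the RNA levels of the groups overlapped.

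A further 96 genes of the pathway were listed by role, and 92 of them were tested. Of these 10 were called higher (10.9%, against 7.28% of all genes) and 1 lower (1.09%, against 4.08%). At any fold 18 passed as higher (19.6%, against 10.0%) and 5 as lower (5.43%, against 7.97%), with a median log2 fold change of 0.09. Of 14 other mitophagy genes 6 had a positive and 8 a negative log2 fold change, with a median of -0.03. Among them 1 was called higher (7.14%, against 7.28% of all genes) and 1 passed as lower (7.14%, against 7.97%). The mitochondrial receptor *Bnip3l* (NIX) was the one called, with 2131, 1811 and 1651 counts in WT and 3690.0, 2909 and 3283 in hnRNPL-deficient libraries (0.82, SE 0.133, adjusted p = 0.00729). Its paralog *Bnip3* had overlapping values, 560 to 938 and 641 to 722. *Phb2*, an inner-membrane mitophagy receptor, passed as lower under 1.5-fold, with 11632 to 13526 counts in WT and 7389 to 10611 in hnRNPL-deficient libraries (-0.44, adjusted p = 0.0813). Of 19 genes of closure, fusion and regulation 3 were called higher (15.8%, against 7.28% of all genes). *Vps11*, a subunit of the tethering complexes of late endosomes, rose from 2131 to 2446 in WT to 3481 to 3953 in hnRNPL-deficient libraries (0.69, adjusted p = 0.00485). *Tecpr1*, a protein that links autophagosomes to lysosomes, and *Ei24*, an endoplasmic reticulum protein, also rose, by 0.64 and 0.59. None of 8 genes of selective autophagy of the endoplasmic reticulum and further adaptors passed (against 10.0% of all genes as higher and 7.97% as lower). With 8 genes this is too few to set the list apart from all genes.

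Among 19 tested genes that carry nutrient and stress signals to autophagy, 4 were called higher (21.1%, against 7.28% of all genes) and 5 passed as higher (26.3%, against 10.0%), with none passing as lower. The median log2 fold change of these 19 was 0.02, with 11 positive and 8 negative. *Ddit4* (REDD1), an inhibitor of mTORC1 signalling, had 624, 457 and 487 counts in WT and 1706, 1343 and 1536 in hnRNPL-deficient libraries. *Sesn2*, a leucine sensor that restrains mTORC1, had 882, 1163 and 1074 in WT and 2999, 2942 and 2649 in hnRNPL-deficient libraries. Neither gene overlapped between groups, with log2 fold changes of 1.55 (SE 0.158, adjusted p = 0.00105) and 1.47 (SE 0.129, adjusted p = 0.000528). The related *Sesn1* rose by 0.80 (adjusted p = 0.00490), and *Prkaa2*, a catalytic subunit of AMPK, was at 36.0 to 71.9 in WT and 107 to 146 in hnRNPL-deficient libraries (1.34, adjusted p = 0.0300). Of 31 lysosomal hydrolases, pump subunits and transport genes, 7 passed as higher (22.6%, against 10.0% of all genes) and 4 as lower (12.9%, against 7.97%). The called ones, 1 in each direction (3.23% each, against 7.28% and 4.08%), were *Sgsh*, a heparan sulfate hydrolase, at 251 to 291 in WT and 339 to 453 in hnRNPL-deficient libraries (0.61, adjusted p = 0.0571), and the protease *Ctsz*, at 11820 to 13291 and 7063 to 8887 (-0.62, adjusted p = 0.0115). *Mitf*, a relative of *Tfeb* and *Tfe3*, had 66.1, 57.9 and 52.8 counts in WT and 278, 189.8 and 212 in hnRNPL-deficient libraries (1.91, SE 0.229, adjusted p = 0.00214), and *Tfec* was listed at 0 in all 6. The log2 fold changes of each list are plotted side by side.

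**Figure D4:**
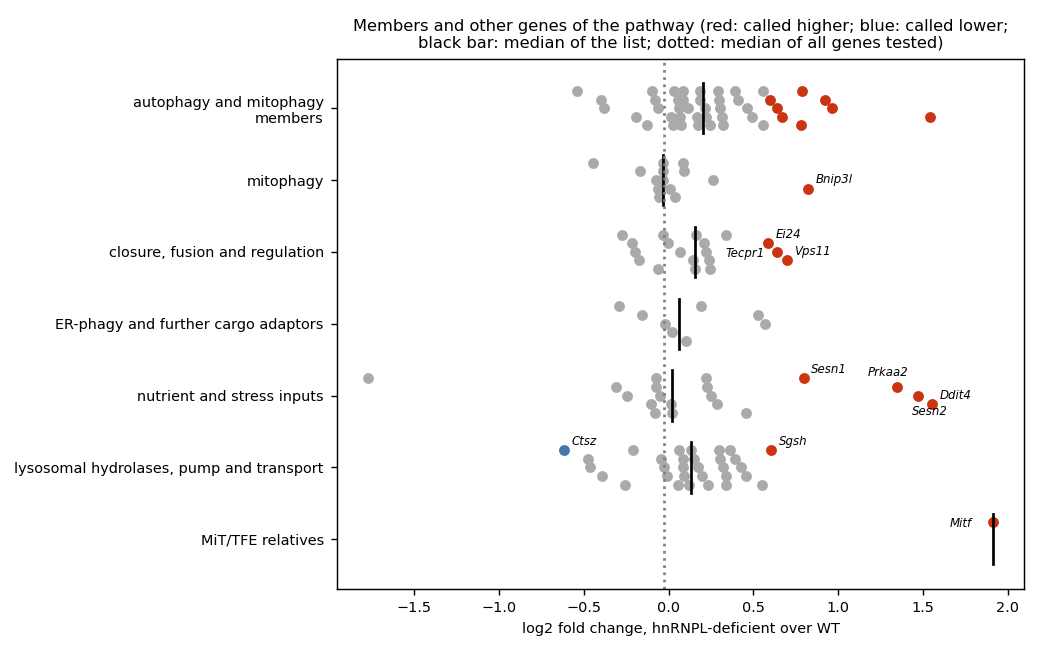
The log2 fold change (hnRNPL-deficient over WT, horizontal axis) of each tested gene among the 44 and in 6 other lists of the pathway, 1 point per gene. Red points were called higher and blue lower, and black bars are list medians, 0.20 for the 44 genes beside -0.03 for all genes tested (dotted line), with Mitf and Ddit4 farthest to the right.

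Values are relative to each library's other RNA, so a change in total RNA per cell would not appear. Fewer cells of a kind and less RNA per cell cannot be told apart in these sorted bulk populations. Reads were summed per gene, so transcript forms and splicing are not seen, and RNA levels do not measure the rate of autophagy. A single gene compared on its own between 3 and 3 libraries could not reach an exact permutation p under 0.1, so each call rests on the spread that limma shares across genes.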

How the data were processed

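The authors trimmed reads with fastp 0.23.1, aligned them with STAR 2.7.9a to mm10, counted them per gene and strand with featureCounts and divided them by DESeq2 1.38.2 size factors. The deposited values are these normalized counts, a signal per gene and library, and not raw counts. The same table holds fold changes and p-values from the authors' own test, which were not used. Each library's values were whole multiples of the value of 1 read (100% within 0.01), which gave back the reads. That holds for hnRNPL-deficient library 2 too, although a general check for such steps did not read it because its step is close to 1. Groups came from the GEO labels.

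Genes with a mean of at least 10 were tested in R 4.3.3 with limma 3.58.1, its prior variance following mean expression, on log2 values after adding 1 to each normalized count. All 6 libraries entered, with genotype as the only term and Benjamini-Hochberg adjustment over 17640 genes. The added count shrinks the log2 fold change of low genes, as for *Map1lc3a*, at 1.56 with 0.5 added and 1.40 with 5. The main value for that gene, 1.54, is not a lower bound, since edgeR and DESeq2 gave 1.47 and 1.46. The limits of 0.1 and 1.5-fold follow the study's methods. edgeR 4.0.16 and DESeq2 1.42.0 on the recovered reads were alternatives, as were other pseudocounts (0.5 and 5), other filters (means of 1 and 50, and none), other scalings and limits, a replicate block, an *Xist* covariate and leaving out each library. The code was tested on simulated data.

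Gene positions and exon lengths came from GENCODE vM21 on GRCm38 (mm10), an earlier release than the one the authors counted with. Promoters came from RefSeq, which gave no window for *Rb1cc1*, *Becn1*, *Pik3c3*, *Atg12*, *Atg16l1* and *Map1lc3a*. The 44 genes, the role lists and the markers were chosen with earlier results of these data known. Called genes among the 44 were named with the value in every library, and the others of the 44 by counts and by the highest and lowest of each role. Called genes of the other lists were named with values, ranges or log2 fold changes. Further genes that are named, among them those that passed under 1.5-fold, were chosen after their values were seen. Whether reads of processed pseudogene copies were lost or added is not known. 1 further gene of the lists is not reported here.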

Additional observations from a re-analysis of the deposited data

How the results depend on the processing

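Of the 44 genes, 8 to 10 were called higher with other pseudocounts, filters, scalings, trend, edgeR or DESeq2 (10 with equal totals, 9 with edgeR, and 8 with quantile scaling, 7 of them shared), 7 with an *Xist* covariate, which lost *Wdr45*, 1 (*Map1lc3a*) at an adjusted p under 0.05 and 2-fold, and 14 with no minimum fold. At an adjusted p under 0.05 and 2-fold, 610 of all 17640 genes tested were called higher, so the share of the 44 was not above that of all genes. With no minimum fold, 1766 of all genes were called higher. Leaving out 1 library gave 5 to 9 of the 44, with 5 without hnRNPL-deficient library 1, which lost *Wdr45*, *Atg10* and *Map1lc3a*. Over all genes tested, leaving out 1 library gave 850 to 1124 called higher. *Atg13*, *Pink1*, *Calcoco1*, *Nbr1* and *Atg9a* were called whichever library was left out. Leaving out both libraries with high *Xist*, chosen after seeing the data, left 2 per group and 3 called higher (*Atg13*, *Calcoco1*, *Pink1*), with 3 passing as higher and 0 as lower. The 0 called lower became 1 with no minimum fold (*Ulk2*) and 0 to 1 on leaving out a library (*Optn* without hnRNPL-deficient library 2). Genes that passed as higher numbered 9 to 14 on leaving out a library (9 without WT library 3 or hnRNPL-deficient library 1), and those that passed as lower 0 to 2, with 3 under DESeq2. *Ulk2* had an adjusted p of 0.108 to 0.144 without any one library except hnRNPL-deficient library 3 (0.0773). With the replicate block, 8 were called higher, 3 passed as lower in place of 1, and 2 of the other pathway genes were called lower in place of 1. The labels do not say whether the replicate numbers pair the libraries, and pairing was not tested. Deviations of same-numbered libraries from their group means had correlations of 0.429, 0.320 and 0.0663. Those of differently numbered libraries had correlations of -0.458 to 0.305, the highest for WT library 3 with hnRNPL-deficient library 2. Other pathway genes called higher numbered 7 to 9 on leaving out a library, 4 at the stricter limits and 18 with no minimum fold. Those called lower numbered 0 to 1 on leaving out a library (0 without WT library 2), 0 with equal totals, with edgeR and at the stricter limits, and 5 with no minimum fold. For the 15 genes that passed, 285 values from 19 alternatives held 0 changes of direction, 16 lost calls and 7 gained ones, counted at 1.5-fold. Among genes that passed under 1.5-fold, *Sqstm1* had an adjusted p of 0.100 when WT library 3 was left out and 0.104 when hnRNPL-deficient library 2 was, and the losses of *Atg14* and *Map1lc3b* stand beside their values. Of the 44 genes 34 kept their direction in all settings. The 10 that did not were *Uvrag*, *Ambra1*, *Atg4b*, *Atg4c*, *Atg5*, *Atg7*, *Atg16l1*, *Gabarapl2*, *Fundc1* and *Tfe3*. Equal totals moved the median log2 fold change of all genes from -0.03 to 0.03. The causes of these changes were not tested, beyond the fewer libraries in some. Depth limits *Wipi1* and *Map1lc3a* most, which had the lowest counts of the 44 genes.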

Other observations

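The 44 genes also varied between libraries of the same group. The median coefficient of variation was 10.2% in both groups, and the highest in hnRNPL-deficient libraries was 28.8%, for *Wipi1*. Library 1 held the highest value of its group in both groups for 11 genes, among them *Lamp1*, *Lamp2*, *Atg5*, *Fundc1* and *Gabarapl2*, and the lowest in both for 11 others, among them *Atg7*, *Atg16l1*, *Uvrag*, *Ambra1* and *Gabarapl1*. *Lamp2*, for example, stood at 14773 in WT library 1 and 10905 and 10687 in the other 2, and at 16222 in hnRNPL-deficient library 1 and 12052 and 14689 in the other 2. These genes were picked out after their values were seen, and no explanation was tested. The share of all genes tested with the same library 1 pattern was not counted, so the pattern is not shown to be particular to the 44.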
